A study of Mus musculus with 2 samples.

Results

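Egr1, Egr2, Egr3, Nr4a1, Nr4a2, Nr4a3 and Myc, 7 genes that B cells switch on soon after their antigen receptor is engaged, were read in single colonic B cells of untreated mice and of mice recovering from colitis. They were taken by symbol from the 31053 genes of the count matrices, and all 7 were found. Levels are given in CPM, where a UMI (unique molecular identifier) stands for 1 captured transcript and the gene's UMIs are scaled to 1000000 UMIs of all genes other than immunoglobulin and mitochondrial ones. Because the kit reads the 3′ end of each transcript, this level is not divided by gene length.

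Binding of antigen to the B cell receptor starts kinase cascades and a calcium signal, which act through serum response factor, CREB and NFAT proteins on a set of immediate-early genes. EGR proteins are zinc finger transcription factors induced downstream of the ERK cascade. NR4A proteins are orphan nuclear receptors that follow receptor signalling closely, and Nr4a1 (Nur77) is widely used as a reporter of it. Myc drives ribosome production and growth in B cells that have received antigen and T cell help.

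Flow cytometry had been used to sort B cells out of colonic lamina propria, and the mice were female C57BL/6J. The day 0 library came from mice without treatment. The day 14 library came from mice given 2% dextran sulfate sodium (DSS), a polysaccharide that injures the colonic epithelium, for 7 days and then left to recover for 7 days. Each group has 1 library, so no difference between days has a replicate check, and every interval given is a 95% interval for counting error only. The label field for treatment names DSS for day 0 as well, so that its untreated state rests on the protocols. How many mice were pooled is not stated in what was read here.

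Cells numbered 3290 at day 0, with a median of 2278.5 UMIs, and 4692 at day 14, with a median of 2241.5. Cd79a, a chain of the receptor complex, and Cd74 were found in 97.8% and 100% of day 0 cells. Summed over 20 markers of T, myeloid, neutrophil and epithelial cells, each class stood between 0 and 34.1 CPM in both libraries. The libraries shared 17 barcodes. Where shares of cells with a transcript are compared, each cell was thinned at random to 1000 UMIs, which kept 3254 cells of day 0 and 4615 of day 14.

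The promoter windows of the NR4A genes and of Egr2 are shown because these genes are the subject of the co-detection results, and because CREB and serum response factor are known to act at such sites. Of the 7 genes, 4 have windows in the RefSeq promoter table used here (GRCm38.p6), each covering 250 bases before and 50 after a start site. The bases before the start site are given 5′ to 3′ on the gene's own strand. Capitals mark CRE half-sites (TGACG or its reverse complement CGTCA) and, in Egr2, also 1 CArG box, the element bound by serum response factor.
Nr4a1 (chr15:101266596-101266845, plus strand): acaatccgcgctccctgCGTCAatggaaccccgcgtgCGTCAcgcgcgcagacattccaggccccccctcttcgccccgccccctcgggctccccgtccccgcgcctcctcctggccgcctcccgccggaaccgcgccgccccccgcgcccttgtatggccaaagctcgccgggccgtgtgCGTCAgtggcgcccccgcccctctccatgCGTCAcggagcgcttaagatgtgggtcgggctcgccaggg
Nr4a2 (chr2:57124004-57124253, minus strand): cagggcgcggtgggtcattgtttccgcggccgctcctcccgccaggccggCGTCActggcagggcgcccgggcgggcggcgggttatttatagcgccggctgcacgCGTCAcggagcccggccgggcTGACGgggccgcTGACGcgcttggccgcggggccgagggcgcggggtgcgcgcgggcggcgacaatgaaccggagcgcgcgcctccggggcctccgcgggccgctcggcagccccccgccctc
Nr4a3 (chr4:48045055-48045304, plus strand): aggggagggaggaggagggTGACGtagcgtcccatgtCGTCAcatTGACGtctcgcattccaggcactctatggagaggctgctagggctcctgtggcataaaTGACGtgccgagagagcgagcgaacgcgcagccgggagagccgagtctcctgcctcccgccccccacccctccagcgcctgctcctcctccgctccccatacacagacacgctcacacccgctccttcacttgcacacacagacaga
Egr2 (chr10:67537619-67537868, plus strand): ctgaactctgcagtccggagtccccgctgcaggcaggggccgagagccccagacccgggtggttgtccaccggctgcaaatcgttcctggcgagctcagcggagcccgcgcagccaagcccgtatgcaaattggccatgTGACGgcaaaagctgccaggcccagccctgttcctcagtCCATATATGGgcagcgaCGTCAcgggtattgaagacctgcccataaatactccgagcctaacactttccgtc

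Each of the 3 NR4A windows held 4 CRE half-sites, counted on both strands with a palindrome counted once. At least 1 half-site was present in 20.8% of the 32851 windows of the table, and at least 4 in 0.231%. The Egr2 window shown held 2 half-sites, 1 before and 1 after its CArG box. Egr2 has 5 overlapping or neighbouring windows in the table, of which 3 hold that arrangement, 1 holds only a CArG box and 1 holds neither. CArG boxes were found in 1.63% of all windows. The Nr4a1 window also held 1 EGR site, on the minus strand as CGCCCCCGC, a motif (GCGNGGGCG with T or G at N) present in 3.47% of windows. It overlapped 1 of 3 GC boxes (GGGCGG) there. These are matches of letters only.

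Among the EGR genes, Egr1 (chromosome 18, 34859823 to 34864984, plus strand; mm10, GENCODE M21) was the most abundant. It stood at 42.5 CPM at day 0 (344 UMIs, interval 38.1 to 47.3) and 47.2 at day 14 (547 UMIs, 43.3 to 51.3), a ratio of day 14 over day 0 of 1.11 (0.968 to 1.27). Egr3 (chromosome 14, 70077203 to 70082614, plus strand), a restraint on lymphocyte activation like Egr2, stood at 27.9 CPM at day 0 and 27.6 at day 14, so that their ratio was 0.988 (0.831 to 1.18). Egr2 (chromosome 10, 67535475 to 67542188, plus strand) was the least abundant of the 7, at 7.04 CPM at day 0 (57 UMIs) and 8.97 at day 14 (104 UMIs), for a day ratio of 1.27 (0.913 to 1.79). The levels of all 3 EGR genes thus had ratios whose intervals spanned 1.

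Nr4a1 (chromosome 15, 101254269 to 101274795, plus strand) was the most abundant of the 7 genes in both libraries. Its level was 299 CPM at day 0 (2423 UMIs, 288 to 312) and 246 at day 14 (2848 UMIs, 237 to 255), a ratio of 0.820 (0.777 to 0.866). A Nr4a1 transcript was found in 24.3% of thinned cells at day 0 (22.8 to 25.8%) and 19.8% at day 14 (18.7 to 21.01%), and in 43.2% and 34.4% of cells without thinning. Nr4a1 was the only one of the 7 whose interval for the ratio excluded 1. Nr4a2 (chromosome 2, 57106830 to 57124003, minus strand) stood at 30.6 and 31.5 CPM, a ratio of 1.03 (0.872 to 1.21). Nr4a3 (chromosome 4, 48045153 to 48086447, plus strand) stood at 13.1 and 10.9 CPM (106 and 126 UMIs), a ratio of 0.829 (0.636 to 1.08), as low as that of Nr4a1 but with a wider interval. Myc (chromosome 15, 61985391 to 61990374, plus strand) stood at 44.6 CPM at day 0 and 42.5 at day 14, giving 0.953 (0.830 to 1.09).

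None of the 7 genes (0 of 7) passed 1.5-fold in either direction between days, against 558 of 8924 genes with at least 50 UMIs (6.25%). Of all genes, 117 (1.31%) were higher and 441 (4.94%) lower at day 14 by that measure. The share of higher genes among those past 1.5-fold was 21% here and 41.2% or 44.1% with TMM or median-of-ratios factors, which raise every ratio by 0.10 or 0.11 on the log2 scale. The median log2 ratio was -0.09 over all genes and -0.02 over the 7. Summed over the 7 genes, the level was 465 CPM at day 0 and 414 at day 14, giving 0.890 (0.853 to 0.929), which became 0.957 and 0.961 with those factors. Without Nr4a1 the other 6 genes summed to 166 and 169 CPM, a ratio of 1.02 (0.948 to 1.09). The Nr4a1 ratio itself became 0.881 and 0.885, still below 1, while Egr3 and Myc, both slightly below 1, moved to slightly above 1.

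**Figure D1:**
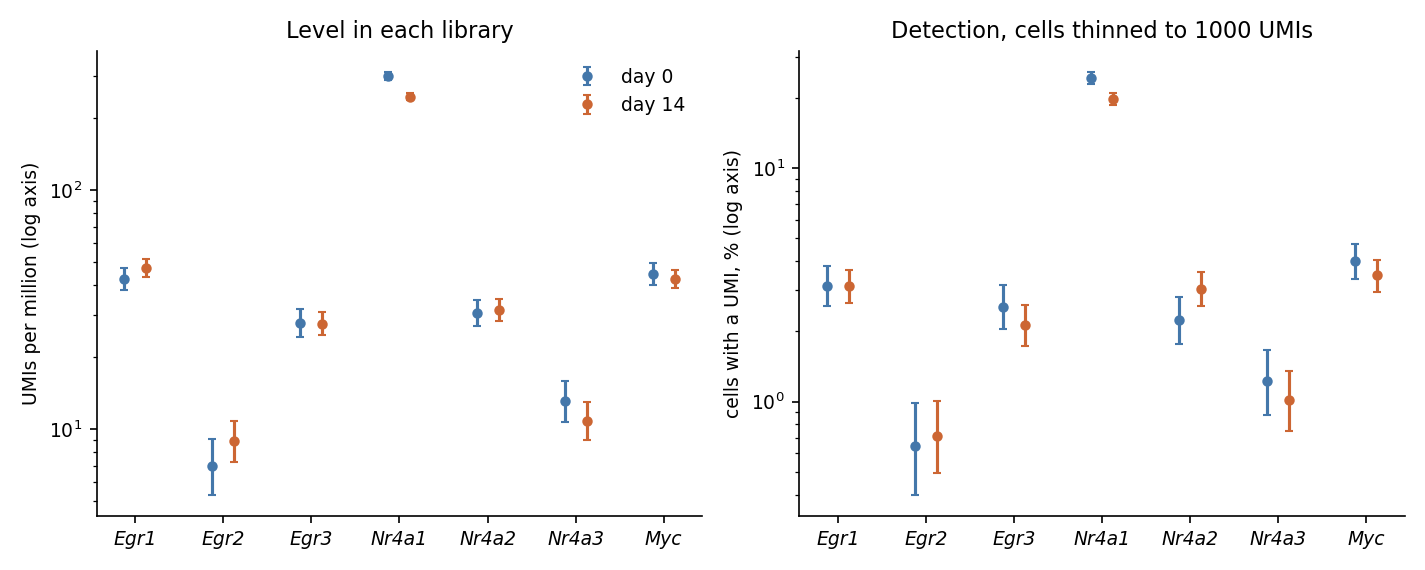
Left, level of each gene in CPM (log axis) in the day 0 and day 14 libraries; right, percentage of cells with at least 1 UMI after thinning to 1000 UMIs (log axis). Points are single libraries and bars are 95% counting intervals. Nr4a1 lies far above the others and is the 1 gene whose bars do not overlap between days in both panels.

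Other genes of the pathway were read through lists. Of 15 measured AP-1 and dissociation-associated early genes, 1 was at least 1.5-fold higher at day 14 (Socs3, a cytokine signalling inhibitor, 1.53) and 2 were lower: Atf3, a stress-induced factor (0.438), and Dusp1, a MAP kinase phosphatase (0.626). Their most abundant gene, Junb, had a ratio of 0.785. Of 23 activation and early receptor response genes, 0 were higher and 4 lower, among them the chemokine Ccl4 (125 and 57 UMIs, 0.318) and the ERK phosphatases Dusp6 (0.595) and Dusp4 (0.651). None of 17 receptor-proximal signalling genes and none of 28 Myc-associated growth genes passed 1.5-fold. The summed level of the growth genes had a ratio of 1.02 (1.01 to 1.03) and that of the proximal genes 0.982 (0.969 to 0.996). Summed ratios were lower for the AP-1 list at 0.815 (0.804 to 0.826), the activation list at 0.858 (0.846 to 0.871) and 13 resting and follicular genes at 0.866 (0.856 to 0.876). TMM or median-of-ratios factors multiply every ratio by 1.07 or 1.08. With them the AP-1, activation and resting lists stay below 1, but the proximal list moves above 1. Dusp1 and Dusp4 then no longer pass 1.5-fold, so the numbers of lower genes given here hold for plain scaling only. Of 9 Myc partners and antagonists 0 passed 1.5-fold either way, and Mycn and Mycl had 1 UMI each over both libraries.

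How the transcripts were spread over cells differed between the genes. Egr1 was found in 5.35% of day 0 cells and 5.22% of day 14 cells, but the 20 cells with most Egr1 held 35.8% and 26.0% of its UMIs, with up to 15 in a cell. For Nr4a1 the 20 highest cells held 6.89% and 6.43%. Nr4a3 was almost always seen as a single transcript: 86 of 95 positive cells at day 0 and 110 of 118 at day 14 had 1 UMI. Without the 20 cells of each library that held most UMIs of the 7 genes, the Egr1 ratio of day 14 over day 0 was 1.29 instead of 1.11. More Egr1-positive cells held 3 or more Egr1 UMIs at day 14 (74 of 245) than at day 0 (34 of 176).

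Few cells carried several of these transcripts at once. After thinning, 68.7% of day 0 cells and 73.9% of day 14 cells had none of the 7 genes. At least 2 were found in 172 of 3254 cells at day 0 (5.29%, 4.54 to 6.11%) and in 239 of 4615 at day 14 (5.18%, 4.56 to 5.86%). At least 3 were found in 1.20% (0.854 to 1.63%) and 1.43% (1.11 to 1.82%). The highest number in a thinned cell was 4 genes at day 0 and 6 at day 14. The shares of cells with several genes thus differed by less than their counting intervals, although Nr4a1 alone was found in fewer cells at day 14. Both shares, and the comparison of days, depend on depth. Without thinning, at least 2 genes were found in 13.8% (12.6 to 15.0%) and 11.1% (10.2 to 12.1%) of cells, with intervals that do not overlap. At 500 UMIs per cell the day 14 share was the higher one by value.

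All 21 pairs of the 7 genes were found together in more cells than the product of their separate shares gives, in both libraries, without thinning. For 18 of the 21 the lower interval bound lay above the product on both days. Cells with a transcript were deeper than cells without. At day 0 the median was 2249 against 2136.5 UMIs for Nr4a1, 2546.5 against 2169 for Egr1 and 2907 against 2179 for Egr2. With every cell at 1000 UMIs, 18 of 21 pairs stayed above the product on both days and 10 did so by their lower bound. Only 11 pairs had 5 or more joint cells on both days at that depth. The 3 exceptions were Egr3 with Nr4a2, Nr4a2 with Nr4a3 and Nr4a2 with Myc, each from 0 to 2 joint cells at day 0.

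Egr1 with Egr2 stood farthest above the product. Without thinning 29 cells had both at day 0, 11.5 times the product (7.72 to 16.6), and 44 cells at day 14, 10.5 times (7.65 to 14.1). After thinning the numbers were 10 and 19 cells, 15.2 and 18.5 times. Egr1 with Egr3 followed among pairs with Egr1, at 4.34 times (42 cells) and 5.98 times (74 cells). Egr1 with Myc stood at 3.57 times (50 cells, 2.65 to 4.70) at day 0 and 5.19 times (81 cells, 4.12 to 6.45) at day 14. Myc was found in 28.4% of Egr1-positive cells and 6.81% of Egr1-negative cells at day 0, and in 33.1% and 4.90% at day 14. Nr4a1 with Nr4a3 was the lowest pair at day 0 (1.24 times) and Nr4a1 with Nr4a2 at day 14 (1.55 times). Egr2 with Egr3 stood at 3.87 and 8.41 times, and Nr4a2 with Nr4a3 at 2.49 and 3.36 times. Nr4a1 is present in so many cells that its ratio cannot be high: at most 1 over its own share.

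**Figure D2:**
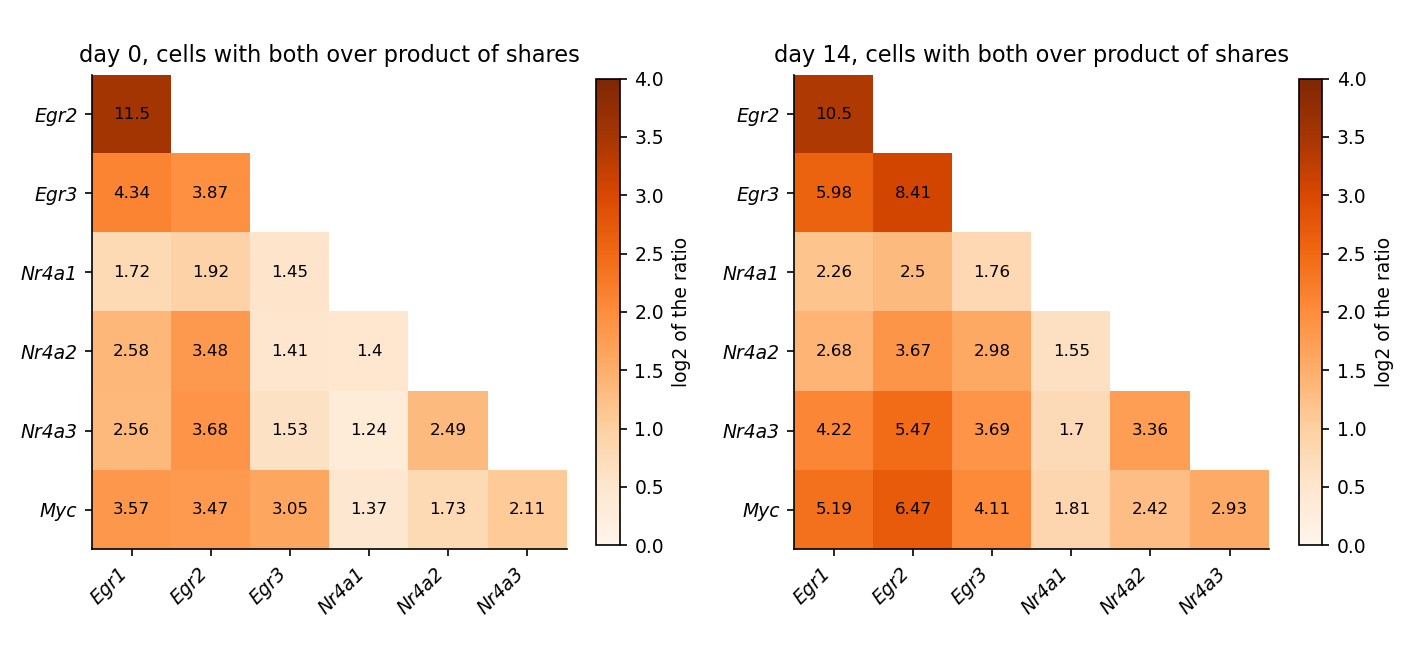
For each pair of genes, the number of cells with both over the number that the product of the 2 shares gives, printed in each square and coloured by its log2 value, in unthinned cells of day 0 (left) and day 14 (right). Every square lies above 1, and the darkest is Egr1 with Egr2 at 11.5 and 10.5.

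The number of Nr4a1 transcripts in a cell went along with the EGR genes and Myc in graded steps. At day 0 an Egr1 transcript was found in 1.75% of thinned cells with no Nr4a1, 4.67% with 1 UMI, 13.5% with 2 and 25.6% with 3 or more (11 of 43 cells, 13.5 to 41.2%). The same steps at day 14 were 1.62%, 5.46%, 16.4% and 31.3% (21 of 67 cells, 20.6 to 43.8%). Myc stepped from 3.04% to 16.3% at day 0 and from 2.30% to 17.9% at day 14 between cells with no Nr4a1 and cells with 3 or more UMIs. Egr3 stepped from 2.03% to 16.3% and from 1.24% to 11.9%. Nr4a3 stood at 0.974% and 4.65% (2 of 43 cells) at day 0 and at 0.865% and 2.99% (2 of 67 cells) at day 14, with overlapping intervals on both days. Nr4a2 reached 7.46% at day 14 (5 of 67 cells) but was found in 0 of 43 such cells at day 0 (interval 0 to 8.22%).

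**Figure D3:**
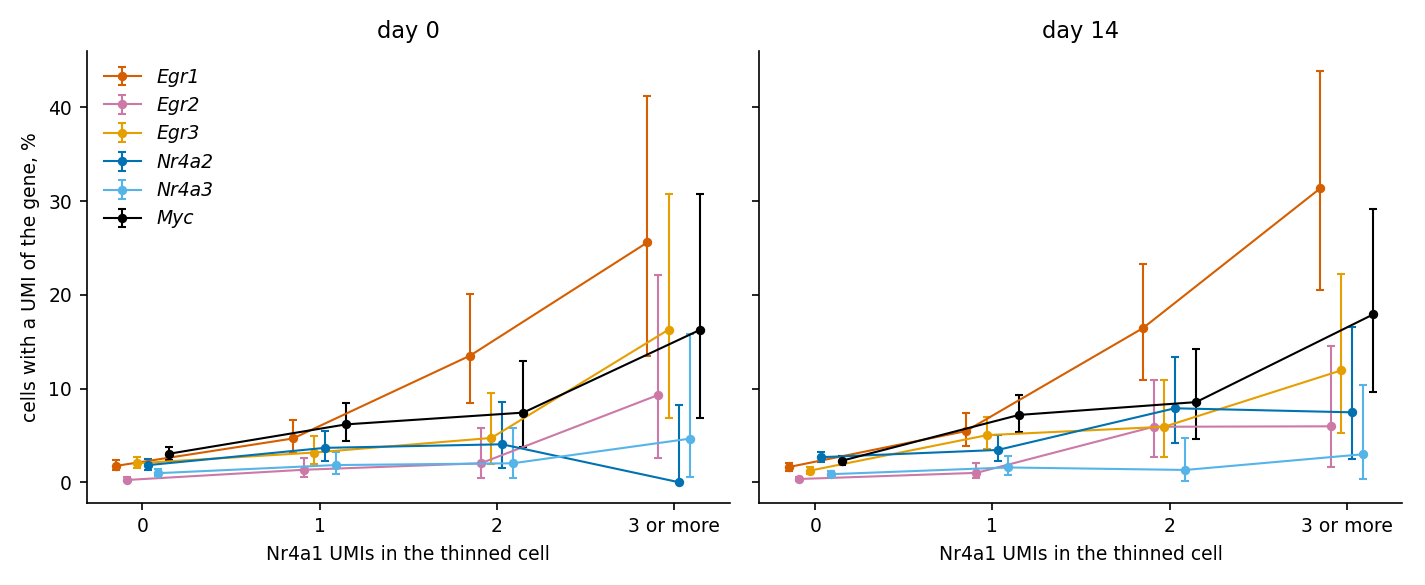
Percentage of thinned cells with a UMI of each gene (vertical axis) by the number of Nr4a1 UMIs in the same cell (horizontal axis), for day 0 (left) and day 14 (right), with 95% counting intervals. Egr1 climbs most, to 25.6% and 31.3% of cells with 3 or more Nr4a1 UMIs, and Nr4a3 ends lowest at day 14 at 2.99%.

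The most alike single genes were other members of the same group for the EGR genes. Over thinned cells, Pearson's r of log UMIs was 0.27 at day 0 and 0.26 at day 14 for Egr1 with Egr2, and 0.19 and 0.24 for Egr1 with Nr4a1. For Egr3 the closest genes were Egr1 (0.12 and 0.19) and Egr2 (0.13 and 0.11). For Myc they were the survival gene Bcl2a1b (0.17 and 0.14) and Gadd45b (0.12 and 0.13). No gene reached 0.11 with Nr4a2 or 0.10 with Nr4a3 on both days, which is too weak in such sparse counts to name a partner. These values are descriptions over 3254 and 4615 cells that share a library.

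By isotype, cells were placed in states from their heavy chain UMIs: IgD (at least 3 Ighd UMIs, 444 and 655 cells at day 0 and day 14), IgD low (1 or 2, 1470 and 2187), IgM only (no Ighd, 608 and 779) and switched (at least 3 IgA, IgG or IgE UMIs, no Ighd, more than Ighm, 94 and 68). Plasma cells were set apart first. The remaining 650 and 978 cells fitted no state, through few heavy chain UMIs or a mix of isotypes. An Igha UMI was found in 242 and 149 of them. An Igha UMI was also present in 151 of 444 IgD cells at day 0 and 96 of 655 at day 14, so single heavy chain UMIs do not mark a state. Switched cells were deeper, with a median of 3094 and 3444.5 UMIs other than immunoglobulin and mitochondrial ones, against 2391 and 2416 in IgD cells.

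Nr4a3 set switched cells apart most. Its level was 8.12 CPM in IgD cells and 37.0 in switched cells at day 0, and 5.81 and 54.3 at day 14. These are ratios of 4.55 (1.88 to 11.5) and 9.34 (4.07 to 22.3), from 14 and 16 UMIs in 12 cells on each day. In IgD low and IgM only cells Nr4a3 stood between 9.11 and 11.4 CPM. Nr4a2 stood at 21.9 in IgD cells and 39.6 in switched cells at day 0 (1.81, 0.893 to 3.52), and at 16.4 and 81.4 at day 14 (4.97, 2.79 to 8.75). Nr4a1 was 1.30 (1.05 to 1.61) and 1.47 (1.14 to 1.88) times its IgD level in switched cells. All 3 NR4A genes were therefore higher in switched than in IgD cells on both days by value, with the interval of Nr4a2 at day 0 spanning 1. This was not particular to switched cells. In IgM only cells Nr4a1 stood at 1.12 and 1.48 times its IgD level, and Nr4a2 at 1.66 and 2.35 times. In cells without a state Nr4a1 stood at 1.39 and 1.57 times, Nr4a2 at 2.30 and 2.32, and Nr4a3 at 2.28 and 2.35. Over 7 alternative settings Nr4a3 in switched over IgD cells ranged from 3.52 to 6.48 times at day 0 and from 6.06 to 16.1 times at day 14. Nr4a2 ranged from 1.66 to 3.52 times and from 3.02 (isotype limit 2) to 11.2 times (without cells over 2 times the median UMIs). With a limit of 5 its day 14 value was 9.61. At that limit Nr4a3 in switched cells stood at 34.6 CPM at day 0 (9 UMIs in 8 of 52 cells). At day 14 it fell to 18.8 CPM (4 UMIs in 2 of 41 cells), against 12.6 in IgM only cells. Its IgD level there was 2.94 CPM, from 1 UMI in 96 cells, so that day 14 ratio rests on very few UMIs.

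Egr3 and Myc had lower values in switched than in IgD cells. Egr3 stood at 30.1 CPM in IgD cells and 10.6 in switched cells at day 0 (4 UMIs, ratio 0.352, 0.091 to 0.978), and at 24.3 and 13.6 at day 14 (4 UMIs, 0.558, 0.146 to 1.53). Myc stood at 43.9 and 29.1 at day 0 (11 UMIs, 0.662, 0.312 to 1.28), and at 26.4 and 6.78 at day 14 (2 UMIs, 0.257, 0.030 to 0.978). For each of these genes 1 of the 2 intervals spanned 1. With an isotype limit of 5 UMIs in place of 3, the Myc ratio at day 0 was 1.04. Egr1 was 2.39 and 2.25 times its IgD level in switched cells, but these values changed with the isotype limit, which sets both states: with 5 UMIs in place of 3 the day 0 ratio was 0.926, and with 2 UMIs the day 14 ratio was 0.996. Without the 20 cells of each library with most UMIs of the 7 genes, the day 0 ratio was 5.04. A higher Egr1 level than in IgD cells was not particular to switched cells. It stood at 1.79 and 2.56 times in IgM only cells and 1.91 and 2.37 times in cells without a state. In IgD low cells it stood at 1.41 (0.959 to 2.12) and 2.56 times. With the limit at 5, switched cells numbered 52 and 41, and IgD cells 86 and 96, with 19 Egr1 UMIs in 5 cells at day 0 and 2 in 2 cells at day 14.

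The switched state was also read in IgA and IgG cells apart. At day 14 the 44 IgA cells held 23 Nr4a2 and 13 Nr4a3 UMIs, or 122 (77.1 to 182) and 68.7 (36.6 to 118) CPM, and the 24 IgG cells held 1 and 3 UMIs, or 9.46 (0.240 to 52.7) and 28.4 (5.85 to 83.0). At day 0 Nr4a2 stood at 38.0 CPM in IgA cells (10 UMIs) and 43.2 in IgG cells (5 UMIs), so its day 14 contrast was not seen there. At day 0 Nr4a3 stood at 45.7 CPM in 64 IgA cells (12 UMIs) and 17.3 in 30 IgG cells (2 UMIs), with overlapping intervals. Egr1 was lower in IgA than in IgG cells by value: 34.2 CPM in IgA cells (15.7 to 65.0) and 138 in IgG cells (79.0 to 224) at day 0, and 26.4 (8.58 to 61.7) and 85.2 (38.9 to 162) at day 14. The split was made after the state values were seen.

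Several features moved with the switched state, and their part in these values was not tested. The germinal center rule, which asks for 2 of 7 markers such as S1pr2 and Bcl6 and 3 UMIs of the 7, held for 9 of 94 and 5 of 68 switched cells. Without those cells Nr4a3 stood at 48.3 and 61.0 CPM in switched cells, 5.95 and 10.5 times its IgD level. Epithelial markers (4, of which Krt20 was at 0) summed to 10.6 CPM in switched and 6.499 in IgD cells at day 0, and to 67.8 and 11.1 at day 14. No switched cell had 2 or more markers of another lineage. Summed over its list, the resting and follicular genes were at 0.651 and 0.616 of their IgD level in switched cells, receptor-proximal genes at 0.769 and 0.851, inhibitory receptors and phosphatases at 0.603 and 0.668, and AP-1 and dissociation-associated genes at 1.34 and 1.22. The activation list stood at 1.02 (0.963 to 1.08) and 1.01 (0.940 to 1.08), and Myc-associated growth genes at 1.19 (1.14 to 1.24) and 1.12 (1.06 to 1.17).

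**Figure D4:**
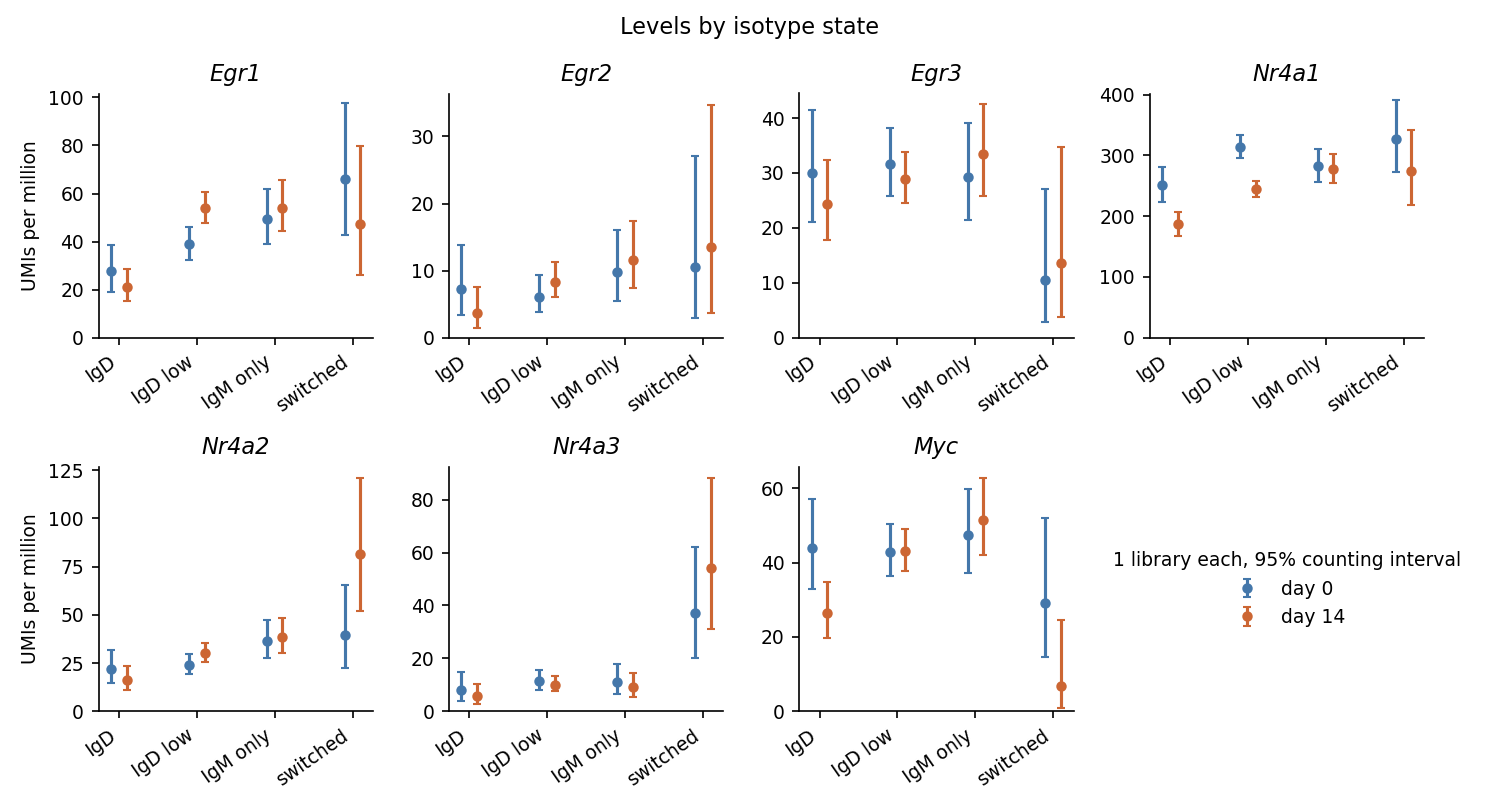
Level of each gene in CPM (vertical axes start at 0 and differ between panels) in IgD, IgD low, IgM only and switched cells of the day 0 and day 14 libraries, with 95% counting intervals. Nr4a3 is at 37.0 and 54.3 in switched cells and below 12 in the other states shown, while Egr3 and Myc have their lowest values in switched cells.

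Among cells that had not switched, the states with fewer Ighd UMIs carried more of the 7 transcripts than IgD cells at day 14. Summed over the 7 genes, IgM only cells stood at 465 CPM against 390 in IgD cells at day 0 (1.19, 1.06 to 1.34), and at 476 against 285 at day 14 (1.67, 1.502 to 1.86). IgD low cells were at 1.20 and 1.47 times the IgD level. Cells without a state, some with a mix of isotypes, stood at 553 and 490 CPM. That was 1.42 (1.26 to 1.59) and 1.72 (1.55 to 1.92) times the IgD level. With an isotype limit of 2 UMIs the IgM only ratios were 1.06 and 1.34. At least 2 of the genes were found in 2.71% and 2.60% of thinned IgD cells (12 of 442 and 17 of 655) and in 5.79% and 6.99% of IgM only cells. The shares were 7.34% and 5.60% in cells without a state, and 7.45% and 8.82% in switched cells (7 of 94 and 6 of 68).

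The lower Nr4a1 level at day 14 was seen in IgD cells (251 to 187 CPM, ratio 0.745, 0.637 to 0.870) and in IgD low cells (314 to 244, 0.778, 0.717 to 0.844). It was also seen in cells without a state (349 to 293, 0.841, 0.743 to 0.952). Switched cells were lower by value (328 to 275, 0.839), with an interval spanning 1 (0.626 to 1.12). IgM only cells stood at 282 and 277 (0.984, 0.866 to 1.12). Myc had a ratio of 0.602 (0.401 to 0.901) in IgD cells and 1.09 (0.797 to 1.49) in IgM only cells. Egr1 had a ratio of 1.39 (1.13 to 1.72) in IgD low cells, 0.765 (0.472 to 1.25) in IgD cells and 1.10 (0.808 to 1.49) in IgM only cells. Whether these ratios differ between states could not be tested with 1 library per day.

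Plasma cells, the antibody-secreting end stage, and germinal center rule cells were low in Nr4a1. In the 24 and 25 cells of the plasma rule (median depth 7509 and 8030 UMIs), Nr4a1 stood at 68.6 CPM at day 0 (12 UMIs) and 9.94 at day 14 (2 UMIs), and Egr2 and Egr3 had 0 UMIs on both days. Egr1 stood at 28.6 CPM there at day 0 (5 UMIs, 9.29 to 66.7), against 27.6 in IgD cells and 42.5 in all cells. At day 14 it stood at 14.9 CPM (3 UMIs, 3.07 to 43.6), against 21.1 in IgD cells and 47.2 in all cells. For a count of 0 the upper interval bound there was 21.1 CPM at day 0 and 18.3 at day 14. Without thinning, a Nr4a1 UMI was found in 37.5% of these deeper cells at day 0 against 43.2% of all cells. Germinal center rule cells (29 and 15) had Nr4a1 at 34.4 and 16.8 CPM from 7 and 2 UMIs. Egr1 stood at 59.0 CPM in those cells at day 0 (12 UMIs in 3 cells). At day 14 it had 0 UMIs in 15 cells, with an upper interval bound of 30.9 CPM.

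The genes that accompanied the 7 were found by comparing thinned cells with at least 2 of them (172 and 239) with cells with none (2236 and 3412). The cells were chosen by the 7 genes, which were left out of this comparison. Of 8429 genes, 115 (1.36%) had an interval above 1 on both days and 22 (0.261%) an interval below 1 on both days. Among the 22 was Jchain, a marker of the plasma rule, at 0.046 and 0.272 times. Of thinned plasma rule cells, 87.5% and 96% had none of the 7 genes. The part of plasma cells in this comparison was not tested. Nfkbid, an atypical IκB protein induced by receptor signalling, was 5.66 times higher at day 0 (4.22 to 7.53) and 6.09 times at day 14 (4.86 to 7.59). Nfkbid was found in 30.4% and 35.4% of thinned Egr1-positive cells and in 7.61% and 8.01% of Egr1-negative cells. Ccl4 was 21.9 and 28.6 times higher, from 27 and 8 UMIs in the cells with several genes. Gadd45b, a stress and NF-κB target, stood at 5.53 and 6.55 times, and Irf4, a factor graded by receptor signal strength, at 5.04 and 4.89 times. The others of the 12 genes with the highest bounds were Hspa1a, Bcl2a1b, Zfp36, Fos, Dusp2, Fosb, Atf3 and Bcl2a1d.

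By list, 13 of 15 AP-1 and dissociation-associated genes and 11 of 23 activation genes had intervals above 1 on both days, and none of either list below 1. The AP-1 list summed to 1.94 (1.84 to 2.04) times at day 0 and 2.81 (2.69 to 2.93) times at day 14, and the activation list to 1.99 (1.87 to 2.11) and 2.61 (2.48 to 2.73) times. Hspa1a, a heat shock gene that also responds to tissue dissociation, was 6.25 (4.35 to 8.86) times higher at day 0 and 14.8 (12.2 to 18.1) times at day 14, and Fos 3.73 and 6.77 times. Activation genes and dissociation-associated genes thus both stood higher on average over this group of cells. Whether the same single cells carried both was not tested, and neither was the part of tissue processing in the 7 genes. Myc-associated growth genes summed to 1.23 (1.16 to 1.30) and 1.12 (1.06 to 1.18) times, with 2 of 28 above 1 on both days. Resting and follicular genes summed to 1.22 (1.15 to 1.29) and 1.32 (1.26 to 1.39) times, with 3 of 13 above 1 on both days. Mitochondrial UMIs averaged 3.01% and 3.46% in the cells with several of the genes and 3.21% and 3.45% in cells with none.

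Receptor-proximal genes did not accompany the 7. Of 17, 0 had intervals above 1 on both days and 2 had intervals below 1, Cd79b at 0.592 (0.472 to 0.736) and 0.540 (0.438 to 0.659), and the kinase Syk at 0.501 (0.271 to 0.852) and 0.516 (0.298 to 0.836). The summed list was at 0.908 (0.841 to 0.980) and 0.905 (0.847 to 0.965). Cd79a, the most abundant of them, stood at 0.957 and 0.962. Of 18 calcium, NFAT and SRF factors, 1 was above 1 on both days, the cAMP-responsive factor Crem at 1.47 (1.26 to 1.71) and 1.22 (1.06 to 1.40), and 1 below, the calcium-regulated factor Nfatc3 at 0.394 (0.157 to 0.825) and 0.330 (0.141 to 0.658). That list summed to 1.08 (0.983 to 1.18) and 0.968 (0.892 to 1.05). Cd79b, Syk, Crem, Nfatc3 and Jchain were named after their values were seen.

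**Figure D5:**
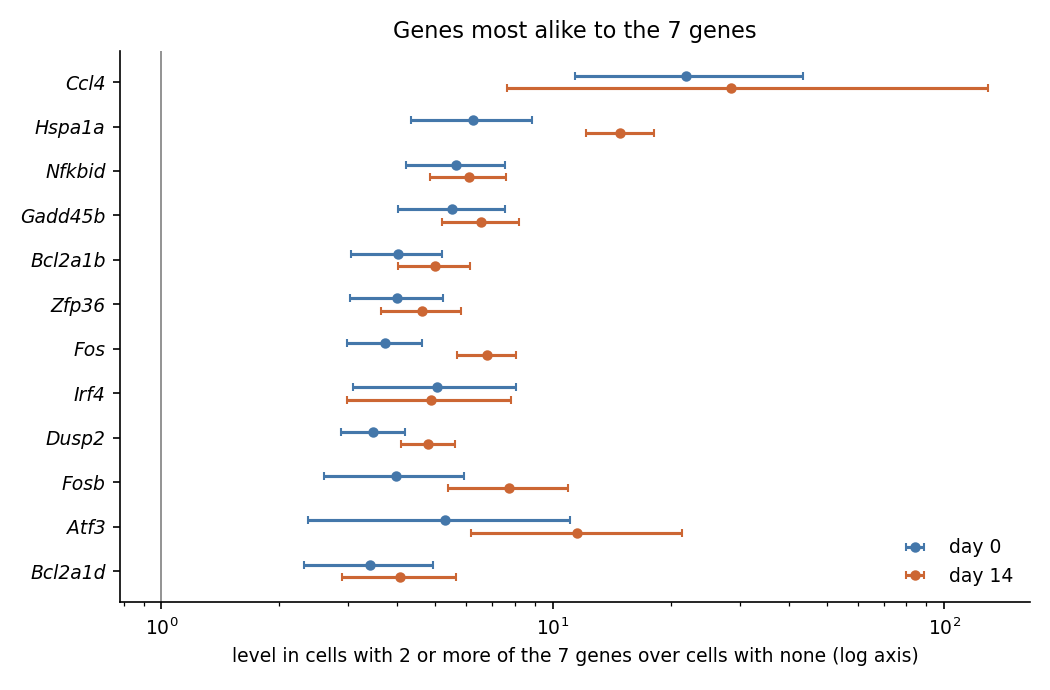
Level in thinned cells with at least 2 of the 7 genes over the level in cells with none (log axis), for the 12 genes with the highest lower bound over both days, with 95% counting intervals. All points lie above 3, and every gene but Irf4 is farther to the right at day 14 than at day 0. Only for Hspa1a and Fos do the intervals of day 0 and day 14 not overlap.

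Cells positive for an EGR gene had more Nfkbid, Nr4a1 and AP-1 list transcripts by value than cells positive for Myc. At day 14 thinned cells with an EGR gene and no Myc (182 cells) had 4.76 (3.68 to 6.08) times the Nfkbid level of cells with neither, and cells with Myc and no EGR gene (116 cells) 2.30 (1.45 to 3.47) times. At day 0 these values were 4.05 (2.94 to 5.49) in 158 cells and 1.86 (1.04 to 3.08) in 106 cells, with overlapping intervals. Nr4a1 stood at 2.76 and 4.44 times in EGR cells and 1.67 and 2.79 times in Myc cells, at day 0 and day 14. The AP-1 list stood at 1.63 and 2.42 times in EGR cells and 1.24 and 1.57 times in Myc cells. Cd69 and Cd83 of the activation list, named after their values were seen, had overlapping intervals on both days. Cd69 stood at 2.29 and 3.35 times in EGR cells and 1.45 and 2.16 times in Myc cells. Cd83 stood at 1.73 and 2.30 against 1.41 and 2.00 times. The Myc-associated growth list stood at 1.19 and 1.13 times in EGR cells and 1.19 and 1.20 times in Myc cells, with overlapping intervals. Cells with both (24 and 44) had Nfkbid at 10.8 (6.55 to 16.8) and 8.58 (5.85 to 12.2) times.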

How the data were processed

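Single B cells were captured with the 10x Chromium 3′ v2 kit. The authors deposited raw UMI counts, whose file headers name Cell Ranger 3.0.1, and natural log normalized values for a subset of barcodes. mm10 and Seurat 3.0 are named in the submitters' processing notes. Neither source gives alignment settings, annotation or cell calling. The natural log table the authors deposited served only to choose cells: its 23030 and 32844 values of the 7 genes matched the counts scaled to 10000 per cell within a relative tolerance of 0.001. The barcodes it leaves out numbered 86 and 88.

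From the counts, levels in CPM, ratios with exact conditional intervals and shares with Clopper-Pearson intervals (95%) were computed in Python 3.11.15 with numpy 2.4.6, scipy 1.17.1 and pandas 2.3.3. TMM factors came from edgeR 4.0.16. Cells were thinned once with seed 1. Day ratios were read only where a gene's UMIs in the libraries together reached 50. Totals were 8690102 UMIs at day 0 and 12317052 at day 14. PCR copies were collapsed by UMI, and intervals cover counting error only. With 1 library per group no test was run. The plasma rule asks for 4 of 10 markers and 25% immunoglobulin UMIs. No doublet caller was run, and cells over 2 times the median UMIs were left out as an alternative. Gene spans are from GENCODE M21. Procedures were tested on simulated data. The 7 genes and all lists were chosen with earlier results of these data known. Named genes are the 7, of each list the most abundant and up to 3 with the largest differences, and the 12 most alike genes by the smaller lower bound over both days.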

Additional observations from a re-analysis of the deposited data

Results flagged for a closer look

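Egr1 was also read in the barcodes that the normalized tables leave out, which enter no comparison above. There it stood at 217 CPM at day 0 (78 UMIs in 16 of 86 barcodes, 18 in the highest) and 531 at day 14 (192 UMIs in 19 of 88 barcodes, 36 in the highest), a ratio of 2.45. Of these barcodes, 70 and 65 had 2 or more markers of T, myeloid, neutrophil or epithelial cells, and they held 49 and 96 of the Egr1 UMIs.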

How the results depend on the processing

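No paired analysis was possible because each group holds 1 library. Ratios and shares under other settings were held against the reported counting interval, and counts against 1.5-fold of the reported count. Of 95 values of the main comparisons, 71 stayed within these limits and 24 moved further. The counts include 11 settings in which 0 of the 7 genes passed 1.5-fold, as reported. Of the ratios among the 95, 0 crossed 1. Of 273 values of single genes, 250 stayed within the interval and 20 moved further. Another 3 crossed 1 although the reported interval excluded it. A further 17 single-gene values crossed 1 where the reported interval spanned it. Among them were the day ratios of Egr3 and Myc. In switched over IgD at day 0 they included Egr2 (0.472 without germinal center rule cells) and Myc (1.04 with a limit of 5). The day ratio of the summed genes was 0.957 with TMM and 0.961 with median-of-ratios factors. Cells with at least 2 of the genes were 2.10% and 2.81% at 500 UMIs per cell, 11.8% and 10.2% at 2000, and 13.8% and 11.1% without thinning, and cells with at least 3 were 1.20% and 1.43%. For the summed genes, switched over IgD was 1.07 at day 0 with an isotype limit of 5 UMIs, 1.80 and 2.59 without cells over 2 times the median UMIs, and 1.63 at day 0 without germinal center rule cells. IgM only over IgD was 1.06 and 1.34 with a limit of 2, 2.12 at day 14 with a limit of 5, and 1.44 at day 14 without the 20 cells with most UMIs of the 7 genes. IgD low over IgD was 1.02 and 1.10 with a limit of 2 and 1.88 at day 14 with a limit of 5. Genes past 1.5-fold numbered 987 at a minimum of 20 UMIs and 170 at 200, against 558. The activation list stood at 2.41 times at day 14 with 2000 UMIs per cell. Egr1 changed direction in switched over IgD at day 0 with a limit of 5 (0.926) and at day 14 with a limit of 2 (0.996), and in IgM only over IgD at day 0 with a limit of 5 (0.813); the cause was not tested. Leaving out the 20 highest cells or shared barcodes was chosen after seeing the data. Switched cells, at 94 and 68, limit what can be seen for the rarer genes.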
